A study of Homo sapiens with 6 samples.

Results

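The NRF2 antioxidant response genes were followed in MDA-MB-453 cells after knockdown of tRF-1-Ser. Members were taken by name and not by a rule on their values, though with earlier results of these data known. They were NFE2L2, KEAP1, NQO1, HMOX1, GCLC, GCLM, TXNRD1, SRXN1, TXN and ME1. The count table of 36517 genes held 9 of these 10. ME1, which encodes a malic enzyme that makes NADPH in the cytosol, was absent, and entered only the search of promoter windows. All 9 genes held passed the filter on low counts and were among the 19628 genes tested.

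MDA-MB-453 is a human breast cancer cell line of luminal, androgen receptor-positive type. The shtRF group (n = 3) carried a lentivirus with a short hairpin against tRF-1-Ser, a short fragment released from the 3′ trailer of a serine tRNA precursor, and the control group (n = 3) carried a lentivirus with a negative-control hairpin, so that both groups had been transduced. The labels place the 6 libraries at day 3, and whether replicates came from separate transductions is not stated, so p-values may measure a spread that is technical. The hairpin's target is too short for these mRNA libraries to measure, and the knockdown could not be checked here. The paper describes the sequenced cells as stable knockdown cells and reports a qPCR check of its knockdown models. Other effects of the hairpin cannot be told apart from loss of tRF-1-Ser in this design.

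NRF2, the product of NFE2L2, is a transcription factor whose amount is set mainly after translation. KEAP1 hands it to a CUL3 ubiquitin ligase for degradation, and oxidants or electrophiles that modify KEAP1 let it escape. It then pairs with a small MAF protein on antioxidant response elements and turns on genes for glutathione synthesis, thioredoxin recycling, NADPH supply, quinone reduction and haem breakdown. BACH1, a repressor, occupies the same elements, and HMOX1 is its best known target. Transcript levels of NFE2L2 and KEAP1 therefore do not report the amount of NRF2 protein.

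The core of the antioxidant response element, written TGACNNNGC or TGAGNNNGC, was searched on both strands of the promoter windows in RefSeq's GRCh38.p14 table, which run from 250 bases before to 50 bases after a start site. TGACNNNGC was present in 13.3% of all 35116 windows, TGAGNNNGC in 18.3% and either in 29.1%, so a match is common. Counted by gene, 6 of the 9 members with a window held a match, with ME1, which has no level here, among them. The shares were 52.6% of the 78 wider pathway genes with a window and 33.7% of all 27305 genes. Of the members, matches were found for NFE2L2, KEAP1, GCLM, TXNRD1, NQO1 and ME1, and none lay in the windows of GCLC, TXN or SRXN1. Windows were matched for all members but HMOX1. NFE2L2, KEAP1, GCLM and TXNRD1 had 2, 3, 2 and 4 matches, and NQO1 had 1. The sites below, 1 for each window with a match, are a selection from these, for the 2 regulators and 3 targets described later. They are printed on the strand that reads the core 5′ to 3′, with the 9 bases of the core in capitals.
GCLM, chr1:93909448-93909472, + strand: gaagacaaTGACTAAGCagaaatcg
KEAP1, chr19:10502786-10502810, + strand: ggtcaccaTGACTAAGCagagccgg
TXNRD1, first window, chr12:104215672-104215696, + strand: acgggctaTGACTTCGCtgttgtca
TXNRD1, second window, chr12:104286922-104286946, - strand: agtcagaaTGACAAAGCagaaatcc
NQO1, chr16:69726663-69726687, + strand: gaggatgcTGAGGCTGCagctccag
NFE2L2, chr2:177264131-177264155, - strand: tggccgtcTGAGCCGGCgcggcccg
GCLM and KEAP1 held the same 9 bases, TGACTAAGC, centred 30 and 27 bases before their start sites on the strand opposite to the gene. These 9 bases were chosen after they had been seen in both, and 36 of the 35116 windows, or 0.103%, held them. None of the 6 sites contained TGACTCA or TGAGTCA, the AP-1 motif that overlaps many response elements. Of the matches not printed, 1 of the member ME1 did contain it, as did matches of SLC3A2, GSTP1, PIR and OSGIN1 among the wider pathway genes. A match describes letters in a window and is not a binding site, and the upstream elements for which NQO1 and HMOX1 are known lie outside such windows.

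Libraries held 63541413 to 78917459 counts, a range of 1.24-fold, and mitochondrial genes took 6.71% to 7.84% of them. All 8 luminal epithelial markers lay above 100 CPM in every library, with CPM (counts per 1000000) taken of the plain total for these markers and of the TMM-scaled total, which allows for composition, for every other gene. Their summed level was 4610 to 4730 CPM in control and 5600 to 5930 in shtRF. Blood, endothelial and basal epithelial lists summed to at most 8.12 CPM in any library. The fibroblast list summed to 30.1 to 36.2 CPM in control and 20.1 to 21.5 in shtRF, almost all of it COL1A1, while PDGFRB had 0 to 14 counts. The part of these levels in the results was not tested.

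Of the 9 members measured, 6 rose and 1 fell after tRF-1-Ser knockdown. HMOX1 rose 2.5-fold and NQO1 1.63-fold, GCLC, GCLM, TXNRD1 and SRXN1 rose by 13.5% to 21.8%, and NFE2L2 fell by 12.3%. KEAP1 and TXN did not pass the test. A call means an adjusted p under 0.05 in edgeR's quasi-likelihood test over all 19628 genes, where 20.6% of genes were called higher and 18.9% lower, or 39.5% in all. These shares depend on the filter on low counts. With a filter at 1 CPM in 3 libraries, 3593 of 14826 genes were called higher and 3707 lower, with 5 members higher and 1 lower. HMOX1 alone passed 2-fold, as did 2.66% of all genes upward and 3.11% downward. The median log2 fold change was 0.26 over the members and -0.003 over all genes. In TMM-scaled CPM all 3 shtRF libraries lay above all 3 control libraries for 6 members and below for 1. On the same scale 48.7% of all genes had groups that did not overlap. Scaled by the plain total instead, the groups of GCLM and SRXN1 overlapped. In bulk RNA, fewer cells that express a gene and less RNA per cell cannot be told apart.

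**Figure D1:**
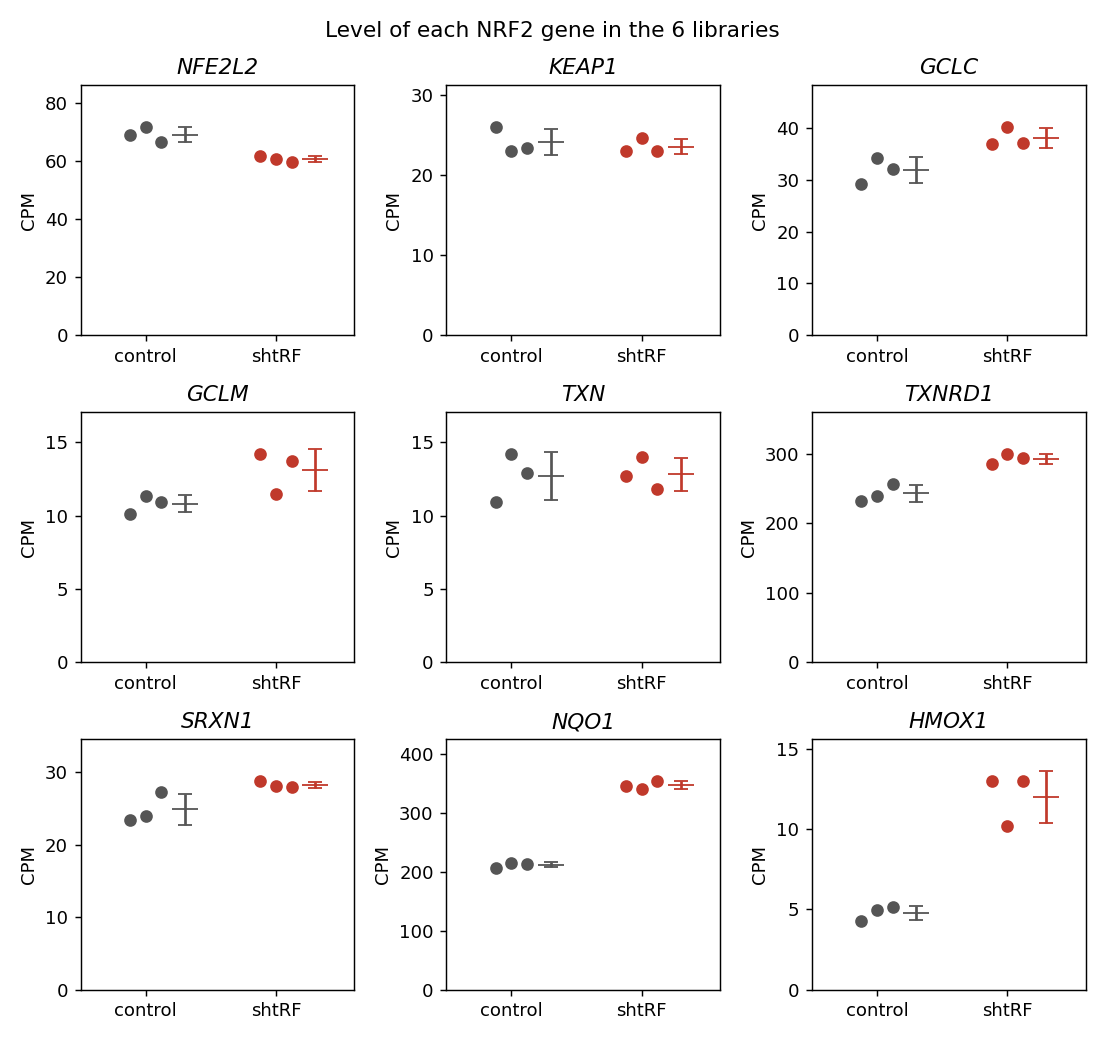
Level in CPM (linear axis from 0, scaled separately for each gene) of the 9 measured NRF2 genes in the control (grey) and shtRF (red) libraries; points are libraries and the bars beside them show the mean and SD (n = 3). Relative to their own level HMOX1 (2.5-fold) and NQO1 (1.63-fold) show the widest gaps between groups, whereas the points of KEAP1 and TXN overlap.

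The 2 regulators came first. NFE2L2 (chromosome 2, 177227595 to 177392697) stood at 69, 71.7 and 66.3 CPM in the control libraries and at 61.5, 60.7 and 59.4 CPM in the shtRF libraries. Every shtRF library was below every control library. The mean fell from 69 ± 2.7 CPM in control to 60.5 ± 1.07 in shtRF (SD, n = 3). On the log2 scale the change was -0.19 ± 0.05 (SE), with an edgeR adjusted p = 0.00762. Other genes cover 20.9% of its exonic bases, mainly AC074286.1, which had at most 1.13% as many counts. With those counts subtracted, an alternative chosen after seeing the data, the log2 fold change was -0.20 (edgeR adjusted p = 0.00548).

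KEAP1 (chromosome 19, 10486120 to 10503741), the adaptor that marks NRF2 for degradation, had 26.1, 23.1 and 23.4 CPM in control and 23, 24.7 and 23.1 CPM in shtRF. The groups overlapped and control replicate 1 was the highest library. Its log2 fold change was -0.04 with a 95% interval of -0.18 to 0.11 (edgeR adjusted p = 0.718). The estimate was 0.01 without control replicate 1. The ratio of NFE2L2 to KEAP1, taken as RPKM within each library (counts scaled by exonic length and library total), was 1.66, 1.95 and 1.78 in control and 1.68, 1.55 and 1.62 in shtRF. The groups overlapped, and the mean log2 ratio was lower by 0.15 in shtRF (shtRF minus control, -0.15; exact two-sided permutation p = 0.2, 0.3 after adjustment over 3 ratios). With 3 libraries against 3 that test cannot go below 0.1.

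Glutathione synthesis starts with glutamate cysteine ligase, made of a catalytic subunit from GCLC and a modifier subunit from GCLM. GCLC (chromosome 6, 53497341 to 53616970) had 29.2, 34.2 and 32.1 CPM in control and 36.9, 40.2 and 37.1 CPM in shtRF. The lowest shtRF library was above the highest control library. It rose by 0.26 ± 0.07 on the log2 scale (SE), with an edgeR adjusted p = 0.00356. With limma-trend on RPKM the rise was 0.17 at a pseudocount of 1 (adjusted p = 0.0862) and 0.20 at 0.1 (adjusted p = 0.0799), and the call was lost.

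GCLM (chromosome 1, 93885205 to 93909456) had 10.1, 11.3 and 10.9 CPM in control and 14.2, 11.5 and 13.7 CPM in shtRF. Replicate 2 of shtRF barely cleared the control range, and in RPKM it lay within that range (2.03, against 1.9 to 2.13). It rose by 0.28 ± 0.09 on the log2 scale (SE), with an edgeR adjusted p = 0.0167, and the call was lost without control replicate 1 (0.24, adjusted p = 0.0775), shtRF replicate 1 (0.22, 0.108) or shtRF replicate 3 (0.25, 0.0758). It was lost with limma-trend as well, at 0.16 (adjusted p = 0.184) and 0.22 (adjusted p = 0.178) for the same pseudocounts. Within libraries the RPKM ratio of GCLM to GCLC was 0.543, 0.515 and 0.528 in control and 0.599, 0.446 and 0.578 in shtRF, so that the shtRF values lay on both sides of the control values. The difference of the mean log2 ratios was 0.02 (exact two-sided permutation p = 1, also after adjustment).

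Thioredoxin, thioredoxin reductase 1 and sulfiredoxin form the second system. TXNRD1 (chromosome 12, 104215779 to 104350305), which encodes the reductase, had 232, 240 and 256 CPM in control and 286, 300 and 294 CPM in shtRF. All shtRF libraries were above control. It rose by 0.27 ± 0.05 on the log2 scale (SE), with an edgeR adjusted p = 0.000293.

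TXN (chromosome 9, 110243811 to 110256640), the reductase's substrate thioredoxin, had 10.9, 14.2 and 12.9 CPM in control and 12.7, 14 and 11.8 CPM in shtRF. The shtRF values lay within the control range. Its log2 fold change of 0.02 had a 95% interval of -0.18 to 0.22 (edgeR adjusted p = 0.922), and its sign changed between settings. The table also has 3 processed copies of TXN with at most 4 counts in any library, and how reads that fit several copies were assigned is not given in the sources used here. The level of TXN is uncertain for that reason. The RPKM ratio of TXNRD1 to TXN was 3.62, 2.89 and 3.37 in control and 3.85, 3.64 and 4.25 in shtRF, without overlap. The mean log2 ratio was higher by 0.25 (exact two-sided permutation p = 0.1, the smallest possible, and 0.3 after adjustment over 3 ratios).

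SRXN1 (chromosome 20, 646615 to 653370) encodes sulfiredoxin, which repairs overoxidised peroxiredoxins. It had 23.4, 24 and 27.3 CPM in control and 28.8, 28.1 and 28 CPM in shtRF, with control replicate 3 close to the shtRF range. In RPKM the groups overlapped, with control replicate 3 at 10.2 and shtRF replicates 2 and 3 at 10.0 and 10.1. The rise of SRXN1, 0.18 ± 0.07 on the log2 scale (SE), had an edgeR adjusted p = 0.0387, the weakest among the members called. It held in 4 of 15 alternatives and was lost without any library other than control replicate 3, with log2 fold changes of 0.13 to 0.19 and edgeR adjusted p-values of 0.0798 to 0.181. Another annotated gene on the same strand covers 84.9% of its exonic bases and had 89.5% to 92.1% as many counts, so the 2 cannot be separated in these counts. With the counts of that gene subtracted, 134, 189 and 172 counts were left in control and 213, 201 and 151 in shtRF (log2 fold change 0.32, edgeR adjusted p = 0.121).

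NQO1 (chromosome 16, 69706996 to 69726951) encodes a quinone reductase that is a standard readout of NRF2 and also a classic target of the aryl hydrocarbon receptor. It had 207, 215 and 214 CPM in control and 345, 340 and 354 CPM in shtRF. The groups were far apart relative to the spread within them. Mean levels were 212 ± 4.49 CPM in control and 347 ± 6.96 in shtRF (SD, n = 3). The rise on the log2 scale was 0.71 ± 0.05 (SE), with an edgeR adjusted p = 3.08e-10, and 6.33% of all tested genes had a larger value. CTD-2033A16.1, a gene annotated on the opposite strand, covers 17.7% of the exonic bases of NQO1. It had 35.1 CPM in control and 69.4 in shtRF (1.98-fold, edgeR adjusted p = 2.4e-11), and 15.6% to 20.9% as many counts as NQO1. Its 62.1 RPKM in control and 119 in shtRF stood near the 66.4 and 105 of NQO1. The strand setting is not given, so reads of the 2 cannot be told apart in the shared bases. With the counts of CTD-2033A16.1 subtracted, the log2 fold change of NQO1 was 0.65 (edgeR adjusted p = 1.29e-09).

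HMOX1 (chromosome 22, 35380361 to 35394214), haem oxygenase 1, cleaves haem to biliverdin, iron and carbon monoxide. It was the least abundant member by CPM in control, at 4.3, 4.95 and 5.14 CPM, and reached 13, 10.2 and 13 CPM in shtRF. All shtRF libraries lay well above control, and replicate 2 was the lowest of them, as it was for GCLM. Mean levels were 4.8 ± 0.437 CPM in control and 12 ± 1.62 in shtRF (SD, n = 3). The rise on the log2 scale was 1.32 ± 0.11 (SE), with an edgeR adjusted p = 3.05e-09, and 1.58% of tested genes had a larger value. Its counts were 280, 374 and 410 in control and 910, 699 and 806 in shtRF, and none of its exonic bases lie in another gene.

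**Figure D2:**
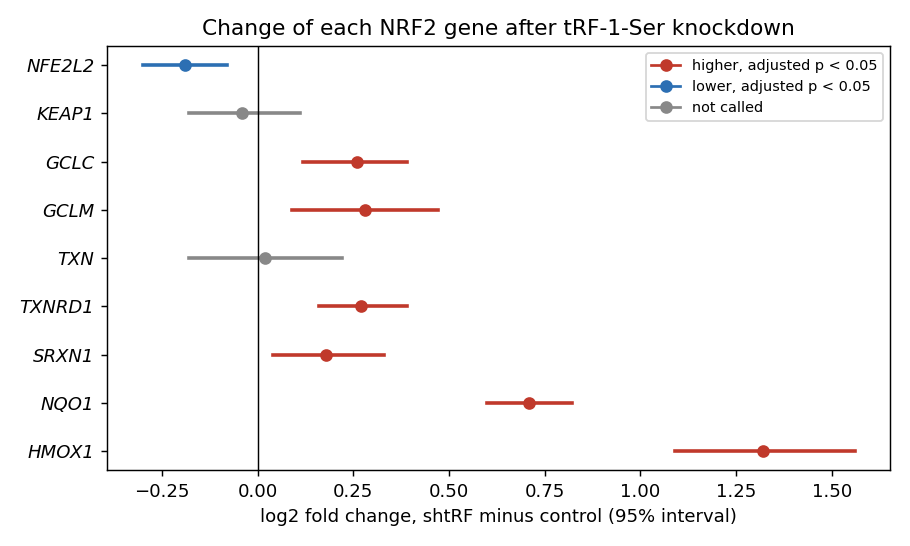
Log2 fold change (shtRF minus control, horizontal axis) of each NRF2 gene with its 95% interval from edgeR's quasi-likelihood fit; red is higher, blue lower and grey not called at an adjusted p under 0.05. The intervals of HMOX1 (1.09 to 1.56) and NQO1 (0.60 to 0.82) do not reach those of the other members.

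Per length, NQO1 and TXNRD1 led in both groups, and the order of the other members differed at NFE2L2 and HMOX1. In control NQO1 led at 66.4 ± 1.55 RPKM (SD, n = 3), followed by TXNRD1 at 36.8 ± 1.65. NFE2L2, TXN and SRXN1 came next at 11.8, 11.3 and 9.39 RPKM, and each overlapped its neighbour in that order. KEAP1 had 6.56 RPKM and GCLC 3.83, both separate from their neighbours, while HMOX1 at 2.03 ± 0.183 and GCLM at 2.02 ± 0.114 were not distinguishable. In shtRF NQO1 reached 105 ± 3.53 RPKM and TXNRD1 42.9 ± 0.172. HMOX1 stood at 4.92 ± 0.746 RPKM, where it overlapped GCLC at 4.41 and lay above GCLM at 2.38. NFE2L2 at 9.94 RPKM came after TXN and SRXN1, overlapping SRXN1.

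**Figure D3:**
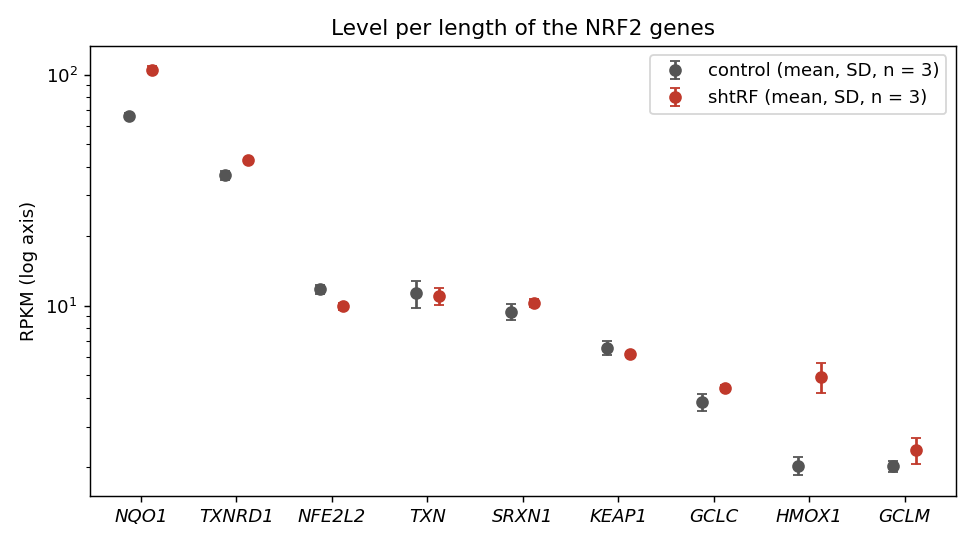
Level per length in RPKM (log axis) of the 9 NRF2 genes, ordered by their control mean; points and bars are the mean and SD of 3 libraries in control (grey) and shtRF (red). NQO1 leads in both groups, and HMOX1 moves from 2.03 to 4.92 RPKM.

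The rest of the pathway was described from a list of 97 genes in 9 roles, of which 87 were tested. Among these 31 rose and 22 fell, 35.6% and 25.3% of the list, against 20.6% and 18.9% of all genes. With the filter at 1 CPM in 3 libraries 28 rose and 23 fell, against 3593 and 3707 of 14826 genes, so the shares of all genes depend on the filter. Where a role is counted below, the shares of its tested genes called higher and lower follow in brackets, to be read against those of all genes. The median log2 fold change was 0.03, close to the -0.003 of all genes. Of the 87 tested pathway genes outside the members, 4 rose and 3 fell by over 2-fold at an adjusted p under 0.05. Of all genes 2.66% rose and 3.11% fell by that much. Among the 7 measured targets in the member list 6 rose and TXN did not pass.

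Among 12 other regulators 5 rose and 2 fell (41.7% and 16.7%). BACH1, the repressor of HMOX1, had 10.6, 11.3 and 9.58 CPM in control and 5.65, 5.43 and 7.06 CPM in shtRF. No shtRF library reached the control range, and the log2 fold change was -0.80 ± 0.11 (SE; edgeR adjusted p = 3.95e-06). The small MAF partners MAFK and MAFG rose, from 17.7 to 25.9 CPM (0.54 on the log2 scale) and from 16.9 to 21 CPM (0.31). Other genes cover 18.1% of the exonic bases of MAFK, and for MAFG limma-trend with a pseudocount of 1 on RPKM missed the threshold (adjusted p = 0.0541). NFE2L1, a relative of NRF2 that governs proteasome genes, was 469, 441 and 451 CPM in control and 588, 625 and 624 CPM in shtRF (log2 fold change 0.43). SQSTM1, which encodes p62, a protein that sequesters KEAP1, rose from 131 to 164 CPM (0.32), with 22% of its exonic bases in other genes. CUL3, the ligase scaffold, had 197 CPM in control and 191 in shtRF, with a 95% interval of -0.15 to 0.07 (edgeR adjusted p = 0.574).

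In glutathione supply and use 2 of 11 genes rose and 4 fell (18.2% and 36.4%). GSS, glutathione synthetase, which acts after GCLC and GCLM, rose from 87.4 to 120 CPM (log2 fold change 0.46, edgeR adjusted p = 7.38e-07). GSR, which returns oxidised glutathione to its reduced form, fell from 50.4 to 38.4 CPM (-0.39). GGT1, which breaks down extracellular glutathione, fell from 12.9 to 5.35 CPM (-1.27), although near-identical family members make its counts uncertain. GPX8, a peroxidase of the endoplasmic reticulum, had 0.654 CPM in control and 0.145 in shtRF (-2.16), with 7 to 70 counts per library. SLC7A11, the cystine transporter, had 28.8, 23.3 and 7.92 CPM in control and 14, 13.2 and 14 CPM in shtRF. Control replicate 3 lay below all shtRF libraries and the other 2 control libraries above them. The log2 fold change was -0.54 ± 0.24 (SE; edgeR adjusted p = 0.0871), and without control replicate 3 it was -0.92 (adjusted p = 8.99e-09). It was also called without the filter on low counts, at -0.55 (adjusted p = 1.78e-09). These were the only 2 of 15 alternatives that called SLC7A11. DESeq2 gave -0.55 (adjusted p = 0.443), and without control replicate 1 the value was -0.19 (edgeR adjusted p = 0.597). Of 8 tested glutathione transferases 3 rose and 1 fell (37.5% and 12.5%). GSTK1 rose by 0.58 and MGST3 by 0.43 on the log2 scale, and GSTZ1 fell by 0.28 (edgeR adjusted p = 0.0186). The call of GSTZ1 was lost without control replicate 2 (-0.18), shtRF replicate 1 (-0.24) or shtRF replicate 3 (-0.27), and with limma-trend at pseudocounts of 1 (-0.20, adjusted p = 0.0746) and 0.1 (-0.31, adjusted p = 0.0743). GSTP1, often the main transferase of epithelial cells, had at most 6 counts in any library.

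Among 12 thioredoxin and peroxiredoxin genes 3 rose and 3 fell (25% and 25%), near the shares of all genes. TXNIP, an inhibitor of thioredoxin, rose from 79.9 to 102 CPM (log2 fold change 0.36, edgeR adjusted p = 0.000166). PRDX1, a peroxiredoxin that NRF2 is known to induce, went the other way to TXNRD1, at 94, 102 and 106 CPM in control and 73.2, 67.2 and 62 CPM in shtRF. Its groups did not overlap (log2 fold change -0.58, adjusted p = 1.71e-07), although 24.9% of its exonic bases lie in other genes. SESN2, a stress-induced regulator of peroxiredoxin recycling, was 37.8, 36.3 and 16.1 CPM in control and 14.8, 15.8 and 17.5 in shtRF. Its fall of 0.90 on the log2 scale (edgeR adjusted p = 0.000438) rests on control replicates 1 and 2, since control replicate 3 lay within the shtRF range, and limma-trend did not call it with a pseudocount of 1 (-0.75, adjusted p = 0.0741) or 0.1 (-0.85, 0.066) on RPKM.

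Of 9 genes of NADPH supply 4 rose and 3 fell (44.4% and 33.3%). PGD, an enzyme of the pentose phosphate pathway that makes NADPH, was 464 and 494 CPM, with an interval of -0.02 to 0.20 (edgeR adjusted p = 0.194). The cytosolic and mitochondrial isocitrate dehydrogenases parted. IDH1 rose from 108 to 161 CPM (0.57), while IDH2 had 42.3, 45.6 and 39.2 CPM in control and 13, 15.9 and 15.1 CPM in shtRF (log2 fold change -1.53 ± 0.08, SE; edgeR adjusted p = 9.33e-13). MTHFD2, a mitochondrial folate enzyme, fell from 104 to 63.8 CPM (-0.71), again with control replicate 3 the lowest control at 77.5 CPM. Other genes cover 33.2% of its exonic bases, and SLC4A5 alone 27.2%.

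Of 11 tested quinone, carbonyl and conjugation enzymes 4 rose and 3 fell (36.4% and 27.3%). ALDH3A1, an aldehyde dehydrogenase also known as a target of the aryl hydrocarbon receptor, had 8, 8 and 4 counts in control and 49, 38 and 60 in shtRF (log2 fold change 2.99 ± 0.46, SE; edgeR adjusted p = 2.08e-05). UGDH, which makes UDP-glucuronic acid for conjugation, rose from 17.4 to 28.7 CPM (0.72), and ESD, an esterase, fell from 9.66 to 6.01 CPM (-0.68). The aldo-keto reductases AKR1C1, AKR1C2, AKR1C3 and AKR1B10, which are strongly induced by NRF2 in many epithelial cells, had at most 4 counts in any library and were not tested. AKR1C1 and AKR1C2 are near-identical, which makes their few counts uncertain.

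In haem and iron handling 5 of 10 genes rose and 2 fell (50% and 20%). TFRC, the transferrin receptor that takes up iron, had 61.3, 63.3 and 71.6 CPM in control and 171, 164 and 166 CPM in shtRF. Its rise of 1.35 ± 0.06 on the log2 scale (SE; edgeR adjusted p = 9.13e-14) stands beside 1.32 for HMOX1. HMOX2, the constitutive haem oxygenase, rose from 64.6 to 81.6 CPM (0.34), and SLC48A1, a haem transporter, from 24.4 to 33.7 CPM (0.47). FTL, the ferritin light chain, had 7.95 CPM in control and 8.41 in shtRF, with an interval of -0.16 to 0.32 (edgeR adjusted p = 0.629). Its level is uncertain, as 6 processed copies with up to 70 counts stand in the table.

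Of 11 exporters and other targets 5 rose and 3 fell (45.5% and 27.3%). ABCC3, which exports conjugates, rose from 42.1 to 88.9 CPM (1.08 on the log2 scale, edgeR adjusted p = 1.88e-10), and OSGIN1, an oxidative stress-induced growth inhibitor, from 2.54 to 5.53 CPM (1.12), with 13.9% of its exonic bases in other genes. ABCC4, another exporter, fell from 2.16 to 1.17 CPM (-0.88). Among 3 tested genes that remove superoxide or peroxide without being defined by NRF2, SOD1 and SOD2 did not pass and CAT fell. CAT, catalase, went from 25.4 to 22.2 CPM (-0.20, edgeR adjusted p = 0.0217), a call lost without control replicate 2 (adjusted p = 0.095), shtRF replicate 2 (0.0789) or shtRF replicate 3 (0.0589).

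**Figure D4:**
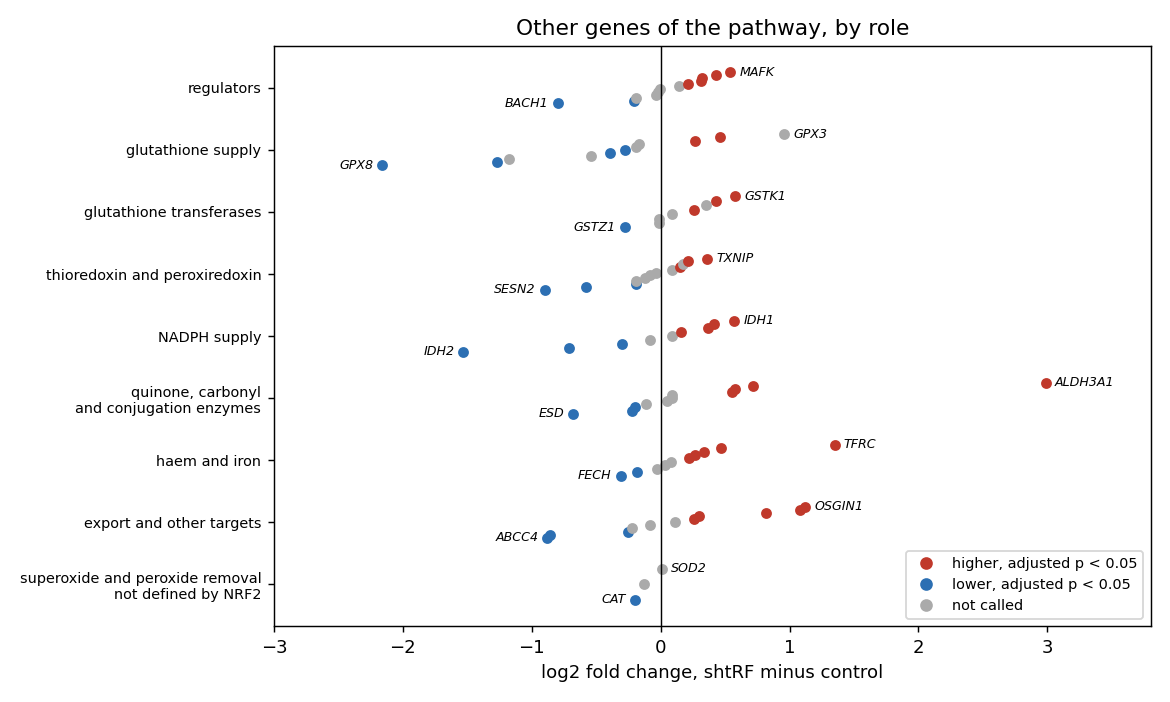
Log2 fold change (shtRF minus control) of the 87 tested pathway genes outside the members, 1 point per gene, by role; red is higher, blue lower and grey not called at an adjusted p under 0.05, and the lowest and highest gene of each role is named. All roles but superoxide and peroxide removal hold genes called on both sides of 0.

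Calls were also counted by the motif in the promoter window. Of members and wider pathway genes, 40 tested genes with a match had 15 higher and 7 lower (37.5% and 17.5%). The 37 with a window but no match had 14 higher and 11 lower (37.8% and 29.7%). The shares called higher were thus nearly equal, and those of all genes were 20.6% higher and 18.9% lower. The medians were 0.09 and 0.02. No test was made of this difference. Among the members themselves, GCLM, TXNRD1 and NQO1, whose sites are printed above, rose, as did GCLC and SRXN1 without a match, while NFE2L2 fell and KEAP1 did not pass with one.

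HMOX1, NQO1, TXNRD1 and NFE2L2 kept direction and call in all 15 alternatives. Their log2 fold changes ran from 0.96 to 1.44, 0.65 to 0.72, 0.22 to 0.31 and -0.24 to -0.17. GCLC kept its call in 13, GCLM in 10 and SRXN1 in 4. With limma-trend on RPKM, at pseudocounts of 1 and of 0.1, 3 members rose in place of 6.

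**Figure D5:**
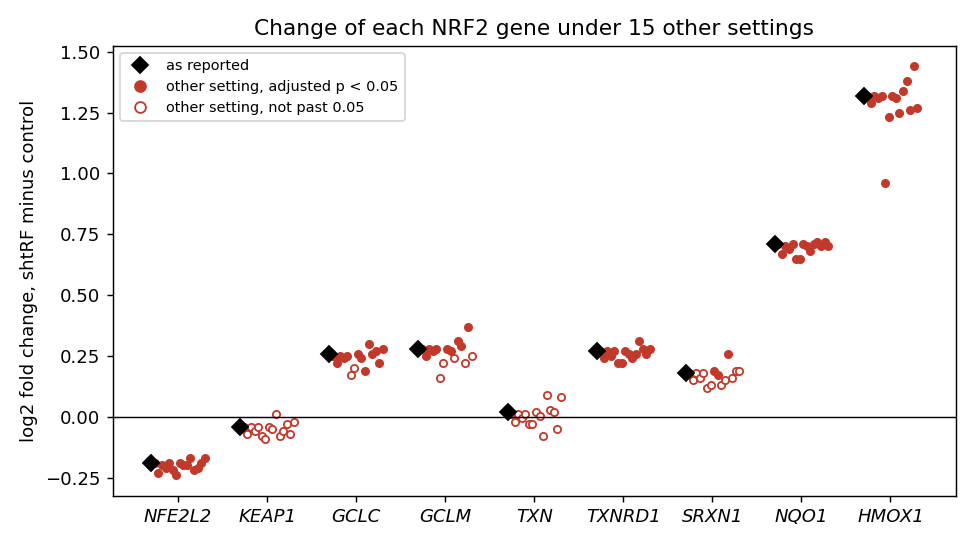
Log2 fold change (shtRF minus control) of each NRF2 gene as reported (black diamond) and under 15 other settings (circles, filled where the adjusted p was under 0.05 and open where it was not). The circles of HMOX1 and NQO1 stay filled and far from 0, while 11 of the 15 circles of SRXN1 are open.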

How the data were processed

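mRNA of 6 MDA-MB-453 libraries (3 control, 3 shtRF, grouped by title) was sequenced as read pairs from stranded libraries. The authors deposited raw counts per gene, and the submitters' processing notes name Trimmomatic 0.36, featureCounts of Subread 1.5.1 and GRCh38. Aligner, strand setting and handling of multimapping reads are not given in the sources used here. The authors also deposited RPKM values. Those of 4991 genes equalled count over exonic length and library total (relative tolerance 0.001), so RPKM was recomputed for all genes. Between 74.2% and 77.1% of counts of 1 to 4 were even, against 49.7% to 50.8% of counts of 1000 or more. Counts may therefore stand for fewer fragments. The even share cannot show whether this holds for high counts, and all counts were halved as an alternative.

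Counts were tested with edgeR 4.0.16 (R 4.3.3; filterByExpr with a minimum count of 10, TMM, glmQLFit and glmQLFTest, group only, Benjamini-Hochberg over all genes). Standard errors were derived from the F statistic. limma 3.58.1, DESeq2 1.42.0 and other settings served as alternatives. The fits were also run on simulated data, whose changes were larger than those of all members but HMOX1. That run therefore does not cover changes as small as those of the other members. Members and lists were chosen with earlier results of these data known. Of the wider list, 13 genes were named whatever their values, with up to 3 called genes of largest change per role, of which 1 is not reported here. Same-numbered replicates correlated at 0.0592, 0.0178 and 0.0174 in their deviations, so numbers were not taken to pair libraries. Exon overlap was computed from the deposited coordinates. Each group had 3 libraries, which limits precision.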

Additional observations from a re-analysis of the deposited data

How the results depend on the processing

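The count of members that rose was 6 as reported and 3 under limma-trend on log2(RPKM + 1) and on log2(RPKM + 0.1), where HMOX1, NQO1 and TXNRD1 held. It was 5 or 6 under RLE and upper quartile scaling, both other filters, DESeq2 and halved counts, and 4 to 6 without 1 library. With the replicate block 6 members rose and 1 fell, and 32 and 24 genes of the wider list did, against 31 and 22. Other settings gave 23 to 31 and 17 to 26. Of 135 values for single members 110 kept direction and call, 18 lost the call, all in GCLC, GCLM or SRXN1, and 7 changed sign in KEAP1 or TXN, which were never called. KEAP1 was 0.01 without control replicate 1. TXN was -0.02 under upper quartile scaling, -0.004 with the filter at 1 CPM in 3 libraries, -0.03 on both RPKM scales, -0.08 without control replicate 1 and -0.05 without shtRF replicate 2, in a range of -0.08 to 0.09 without 1 library. FTL was -0.004 to 0.24 without 1 library, lowest without control replicate 1. Of 493 values for 33 named genes of the wider list 479 kept direction and call. The median shift of all genes was under 0.1 in each alternative. The causes were not tested. The ratio of GCLM to GCLC changed by -0.06 to 0.15 without 1 library.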

Other observations

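Further pathway genes, chosen after their values were seen, moved with larger counts behind them than several members had. ABCC5, an exporter of nucleotide analogues and conjugates, had 222, 222 and 201 CPM in control and 385, 369 and 387 CPM in shtRF, a rise of 0.82 on the log2 scale (edgeR adjusted p = 8.87e-11). PIR, which encodes pirin, an iron-containing nuclear protein, rose from 17.3 to 25.4 CPM (0.55, adjusted p = 1.5e-06). GPX4, the peroxidase that reduces lipid peroxides, rose from 368 to 444 CPM (0.27, adjusted p = 0.000606), whereas TKT, a pentose phosphate enzyme, fell from 202 to 164 CPM (-0.30, adjusted p = 5.93e-05).

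Control replicate 3 stood apart from the other control libraries in SLC7A11, SESN2 and MTHFD2, and also in SLC3A2, the partner chain of SLC7A11, which had 112, 99.5 and 64.6 CPM in control and 82, 75.7 and 84.5 CPM in shtRF (edgeR adjusted p = 0.219). Among the members, HMOX1, NQO1, TXNRD1, GCLC, GCLM and SRXN1 rose and NFE2L2 fell without that library too.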
